A study of Mus musculus with 39 samples.

Results

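Antisense oligonucleotides (ASOs) that lower a transcript act through cellular proteins, and the transcripts of 10 genes of that machinery were followed here in the brains of mice given ASOs against Tmem106b. The 10 genes were chosen by name for their known roles, out of 52636 genes measured: Rnaseh1, Xrn1, Xrn2, Dis3, Exosc10, Nono, Sfpq, Pspc1, Ssb and Neat1. All 10 were detected in every library and all passed the filter on low counts, which left 19246 genes for testing.

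An ASO of the gapmer type pairs with its target RNA, and RNase H1 cuts the RNA strand of the DNA-RNA hybrid. The exonucleases XRN1 and XRN2 then degrade RNA from its 5′ end and the RNA exosome, with its catalytic subunits DIS3 and EXOSC10, degrades it from its 3′ end. Paraspeckles are nuclear bodies built on the long noncoding RNA Neat1 by the proteins NONO, SFPQ and PSPC1, and these proteins, like the La protein encoded by Ssb, can bind phosphorothioate ASOs. The chemistry of the oligonucleotides in this series is not stated in the labels.

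Polyadenylated RNA from mouse brain was sequenced in 39 libraries. ASO 1 (code RTR114030) had 3 libraries, ASO 2 (RTR113622) 5, ASO 3 (RTR113656) 4 and ASO 4 (RTR113792) 5. The treatments known only by a code were RTR113609 with 4 libraries, RTR113643 with 5, RTR113841 with 3 and RTR59155 with 5, and 5 libraries came from saline-treated mice. The labels state no dose, time, route, sex, age, genotype or brain region, and their extraction protocol starts from a pellet of cells although the tissue is labelled brain. The labels do not say that the libraries of a group came from separate animals, so the p-values measure the spread between these libraries, which may be in part technical.

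Counts summed to 19676531 to 44205941 per library. The target Tmem106b averaged 53.3 ± 9.1 CPM (read counts made comparable between libraries by TMM scaling) in ASO 1 libraries and 113 ± 6.4 CPM in ASO 4 libraries, the lowest and highest treated groups, against 192 ± 15.6 CPM in saline libraries (SD, n = 3, 5 and 5). It passed the test in all 8 treatments, fell by 72.2% with ASO 1 and fell by 41.2% with ASO 4, and no treated library overlapped the saline libraries. Markers of neurons, astrocytes, oligodendrocytes and microglia were detected throughout. In 11 libraries, none of them saline or from RTR113609 or RTR113841, Pmch, the melanin-concentrating hormone gene of the lateral hypothalamus, exceeded 5 CPM. These were 2 of 3 ASO 1, 1 of 5 ASO 2, 3 of 4 ASO 3, 2 of 5 ASO 4, 1 of 5 RTR113643 and 2 of 5 RTR59155 libraries. In bulk tissue, a change in the share of cells and a change in RNA per cell cannot be told apart.

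Of 80 tests (10 genes in 8 treatments against saline), 2 passed an adjusted p of 0.05 in edgeR's quasi-likelihood test with Benjamini-Hochberg adjustment over all tested genes. Neat1 rose with ASO 3 and Exosc10 fell with RTR113609. That is 2.5% of the tests, against 1.27% of all gene tests in the same 8 comparisons, and rests on 2 genes. In 77 of the 80 tests the log2 fold change was smaller than 0.2 in size, as it was in 79.7% of all gene tests. An unadjusted p below 0.05 was found in 8 of the 80, against 12.2% of all gene tests, so that count is not above the background. For the 9 protein-coding genes, the 95% intervals of the change lay between -21.3% and 21.5% in every treatment.

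**Figure D1:**
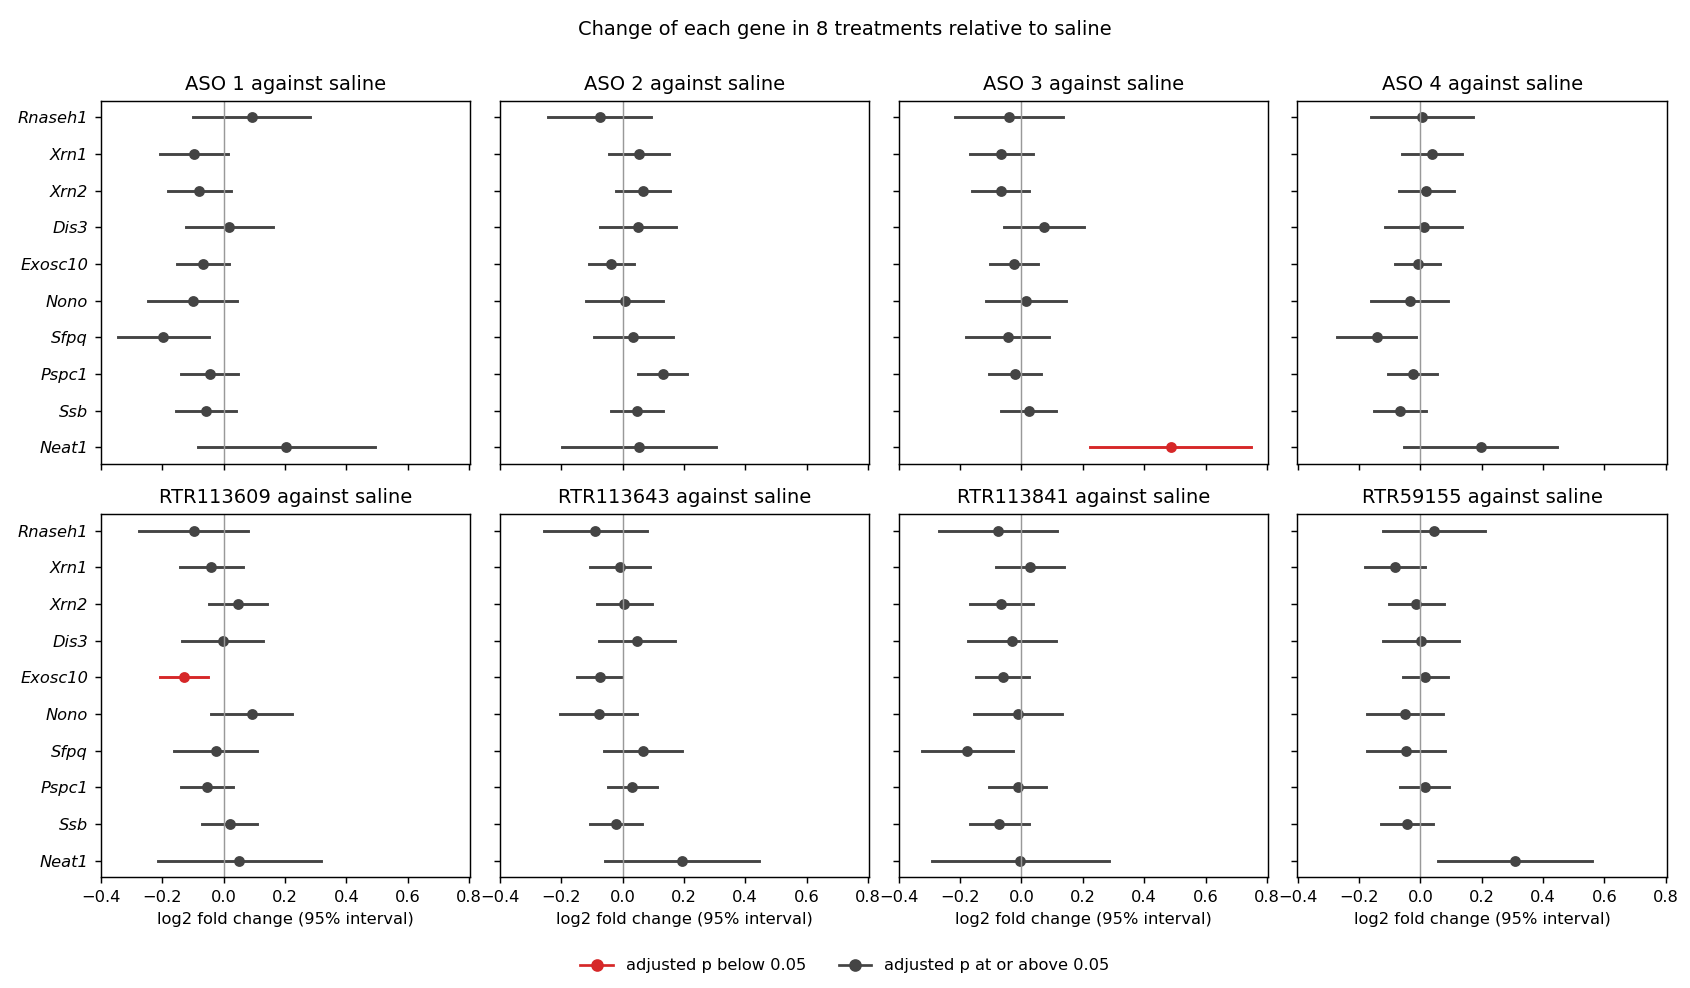
Log2 fold change against saline of each of the 10 genes in each of 8 treatments, with 95% intervals (edgeR); red marks an adjusted p below 0.05. The 2 red points are Neat1 with ASO 3 (0.49) and Exosc10 with RTR113609 (-0.13), and all other intervals belong to tests that did not pass.

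Rnaseh1 (ENSMUSG00000020630, GRCm38 chr12:28649602-28659589, plus strand) encodes the enzyme on which ASO cutting depends. Its libraries held 9.83, 10.4 and 9.12 CPM in ASO 1 and 9.91, 10.7, 8.33, 9.53 and 8.93 CPM in RTR59155, against 9.23, 10.3, 8.94, 8.90 and 8.55 CPM in saline. Group means ran from 8.56 ± 0.75 CPM in RTR113609 (SD, n = 4) through 8.65 ± 0.99 in RTR113643, 8.70 ± 0.31 in RTR113841, 8.70 ± 0.86 in ASO 2, 8.92 ± 0.51 in ASO 3, 9.15 ± 1.10 in ASO 4 and 9.47 ± 0.90 in RTR59155 to 9.77 ± 0.62 CPM in ASO 1 (n = 3), against 9.18 ± 0.65 CPM in saline (n = 5). All 8 treatments overlapped the saline libraries, and no 2 neighbours in the order of the group means differed by more than the pooled SD within groups, 0.82 CPM. Small gaps between neighbours say little about the ends of the order, 8.56 and 9.77 CPM. Neat1, called with ASO 3, had no such gap either (largest 26.0 CPM, pooled SD 26.5 CPM). The log2 fold changes against saline were between -0.10 and 0.09, with adjusted p between 0.610 and 0.996 (edgeR). The group with the lowest Tmem106b, ASO 1, had the highest mean Rnaseh1, and the group with the third lowest, RTR113609, had the lowest, but the libraries of ASO 1, RTR59155 and saline overlapped.

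**Figure D2:**
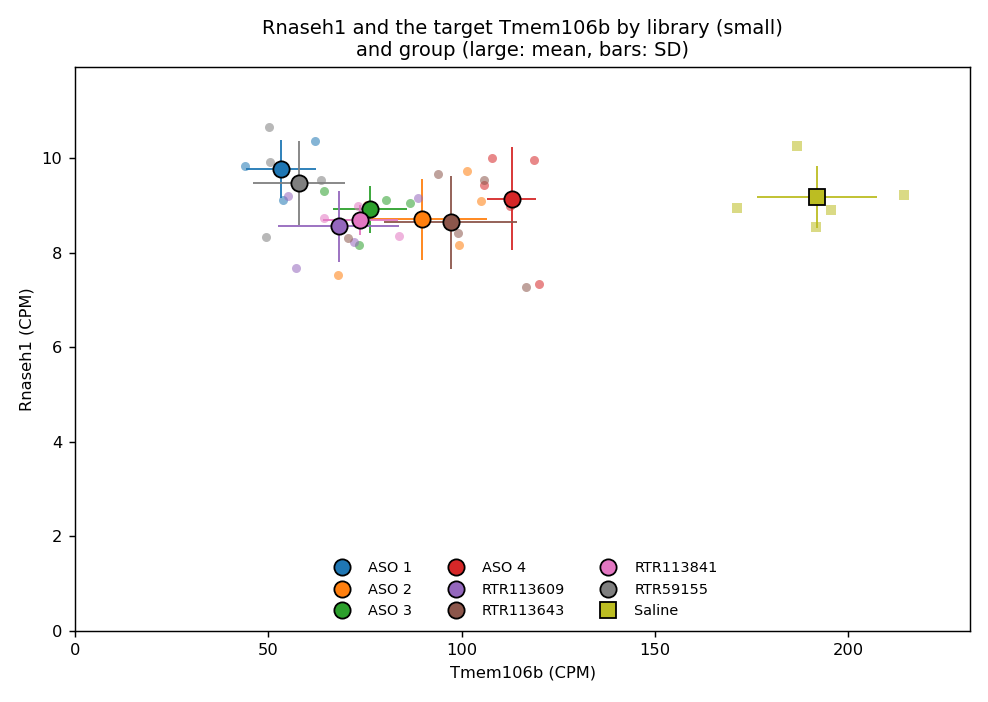
Rnaseh1 against Tmem106b in CPM for each of 39 libraries (small symbols) and for each group (large symbols with mean and SD bars). Tmem106b separates the saline libraries from all treated ones while Rnaseh1 stays between 7.27 and 10.7 CPM in every group.

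Of the enzymes that finish degradation, Xrn1 (ENSMUSG00000032410, chr9:95954760-96057803, plus strand), the cytoplasmic 5′ to 3′ exonuclease, averaged between 32.0 ± 1.6 CPM in ASO 1 and 35.6 ± 2.0 CPM in ASO 2 (SD, n = 3 and 5), against 34.3 ± 0.9 CPM in saline (n = 5). Xrn2 (ENSMUSG00000027433, chr2:147012996-147078000, plus strand), its nuclear counterpart, averaged between 45.8 ± 2.5 CPM in ASO 1 and 50.7 ± 2.9 CPM in ASO 2, against 48.4 ± 1.7 CPM in saline. Both had their lowest mean in ASO 1 and their highest in ASO 2, and neither was called against saline in any treatment (smallest adjusted p 0.462 for Xrn1 and 0.522 for Xrn2, edgeR). Their 95% intervals against saline lay between -13.5% and 11.0% for Xrn1 and between -11.9% and 11.4% for Xrn2. Dis3 (ENSMUSG00000033166, chr14:99075206-99099770, minus strand), the processive exosome nuclease, varied least of the 10 genes in its group means, though not in its single libraries. Its highest group mean, 12.6 ± 0.4 CPM in ASO 3, exceeded the lowest, 11.8 ± 1.1 CPM in RTR113841, by 7.41% (n = 4 and 3). Every pair of groups overlapped in Dis3. Its first bases overlap Pibf1 on the opposite strand, and the strand setting of the counting is not stated. Pibf1 fell in 4 treatments, with a log2 fold change of -0.76 with ASO 1 (adjusted p = 6.4e-07), -0.72 with RTR59155 (2.0e-08), -0.54 with RTR113643 (2.2e-05) and -0.54 with RTR113841 (0.00073, edgeR). It was not called in the other 4 treatments, where its adjusted p was between 0.219 and 0.970. Dis3 averaged 12.18 ± 0.75 CPM in ASO 1, 12.04 ± 0.89 in RTR59155, 12.42 ± 0.82 in RTR113643 and 11.78 ± 1.06 CPM in RTR113841, against 12.03 ± 0.65 CPM in saline.

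Exosc10 (ENSMUSG00000017264, chr4:148558429-148582401, plus strand), the exosome's nuclear 3′ to 5′ exonuclease, fell with RTR113609. Its libraries held 42.2, 42.6, 43.2 and 41.9 CPM in RTR113609, against 47.4, 45.4, 50.7, 46.3 and 42.3 CPM in saline. The means were 42.5 ± 0.6 CPM in RTR113609 and 46.4 ± 3.0 CPM in saline (SD, n = 4 and 5), and the log2 fold change was -0.13 with an SE of 0.04 (adjusted p = 0.0354, edgeR). The 4 treated libraries lay close together and overlapped only the lowest saline library. In RTR113609, 6.72% of all tested genes were called, and 1 of the 10 genes is near that background. In the other treatments Exosc10 averaged between 44.1 ± 1.3 CPM in RTR113643 and 46.9 ± 1.4 CPM in RTR59155 (n = 5 each). The adjusted p exceeded 0.05 when any RTR113609 library or saline replicate 1, 2, 3 or 4 was left out, and also without ASO 1 replicate 1, 2 or 3, ASO 3 replicate 1, RTR113643 replicate 4, RTR113841 replicate 1 or 2, or RTR59155 replicate 1 or 2. Over all 39 such fits the adjusted p ran from 0.00524 to 0.181. It was 0.145 without the filter on low counts and 0.154 with only the 2 groups in the fit (edgeR). The call was kept with DESeq2 (0.0289), limma voom (0.0474), median-of-ratios scaling (0.0379) and striatal and hypothalamic marker levels as covariates (0.0275). It was lost without the high-Pmch libraries, at a log2 fold change of -0.12, though none of those libraries came from RTR113609 or saline. Of 8 oligodendrocyte markers 4 were called lower in RTR113609, with sums of 6247 to 7867 CPM in RTR113609 and 7472 to 9569 CPM in saline, and of 8 microglial markers 4 were called higher, with sums of 748 to 801 CPM in RTR113609 and 583 to 738 CPM in saline. Of 8 neuron markers 1 was called lower, with sums of 6595 to 7829 CPM in RTR113609 and 7237 to 7765 CPM in saline. Of 8 astrocyte markers 1 was called higher (4590 to 5108 and 4403 to 5300 CPM). Of 8 endothelial markers 1 was called higher (263 to 281 and 251 to 279 CPM). No marker of these lists was at 0, and the part of these markers in the Exosc10 result was not tested.

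Of the 3 paraspeckle proteins of the DBHS family, Nono (ENSMUSG00000031311, chrX:101429318-101448591, plus strand) averaged between 11.6 ± 0.5 CPM in ASO 1 and 13.2 ± 0.6 CPM in RTR113609 (SD, n = 3 and 4), against 12.4 ± 0.6 CPM in saline (n = 5). Its smallest adjusted p against saline was 0.495 (edgeR). Sfpq (ENSMUSG00000028820, chr4:127021324-127037013, plus strand) averaged 93.7 ± 7.5 CPM in ASO 1 and 95.1 ± 7.9 CPM in RTR113841, against 107 ± 11.9 CPM in saline (n = 3, 3 and 5). The remaining Sfpq means were 97.4 ± 4.7 CPM in ASO 4, 104 ± 7.2 in RTR59155, 104 ± 3.0 in ASO 3, 106 ± 5.5 in RTR113609, 110 ± 8.1 in ASO 2 and 112 ± 9.5 CPM in RTR113643. Its log2 fold change was -0.20 with ASO 1 (adjusted p = 0.235), -0.14 with ASO 4 (adjusted p = 0.518) and -0.18 with RTR113841 (adjusted p = 0.611), and these groups overlapped the saline libraries, whose lowest was 95.8 CPM. Sfpq overlaps the noncoding gene Gm12940 on the same strand.

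Pspc1 (ENSMUSG00000021938, chr14:56720710-56778316, minus strand) was highest with ASO 2 and held 47.7, 47.7, 50.4, 50.9 and 48.7 CPM in ASO 2 libraries, against 45.7, 45.5, 44.6, 47.6 and 40.7 CPM in saline libraries. The means were 49.1 ± 1.5 CPM in ASO 2 and 44.8 ± 2.5 CPM in saline (SD, n = 5 each). No library overlapped, but the adjusted p was 0.134 (edgeR; 0.0493 in DESeq2), at a log2 fold change of 0.13 (SE 0.04). The other treatments averaged between 43.2 ± 2.8 CPM in RTR113609 and 45.8 ± 1.3 CPM in RTR113643 (n = 4 and 5), and all 7 overlapped the saline libraries. The gap in mean between ASO 2 and the next group, RTR113643, was 3.26 CPM, against a pooled SD within groups of 1.82 CPM; among the 10 genes no other neighbouring pair of means was separated by more than its pooled SD.

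Ssb (ENSMUSG00000068882, chr2:69861562-69871846, plus strand) encodes the La protein, which binds the 3′ ends of RNA polymerase III transcripts. It averaged between 104 ± 7.5 CPM in RTR113841 and 113 ± 5.4 CPM in ASO 2 (SD, n = 3 and 5), against 110 ± 4.6 CPM in saline (n = 5), and its smallest adjusted p against saline was 0.666 (edgeR). Ssb overlaps Mettl5 on the opposite strand. On the deposited RPKM scale (reads scaled to library total and to the deposited gene width), Ssb had the highest level of the 9 protein-coding genes in saline with 45.8 ± 1.9 RPKM, followed by Sfpq with 27.0 ± 2.8, Exosc10 with 14.5 ± 0.9 and Xrn2 with 12.3 ± 0.4 RPKM (SD, n = 5). The remaining 5 lay between 2.82 ± 0.17 RPKM for Dis3 and 7.19 ± 0.40 RPKM for Pspc1, with Rnaseh1 at 5.50 ± 0.41 RPKM. Neat1 cannot be placed in this order, because its value depends on which of its forms the reads came from.

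Neat1 (ENSMUSG00000092274, chr19:5824708-5845478, minus strand) is the noncoding RNA around which paraspeckles form. It is made as a short polyadenylated transcript and as a long one whose 3′ end is cut by RNase P and lacks a poly(A) tail, and only the long form builds paraspeckles. The deposited width, 20771 bases, equals that of the long transcript in GENCODE, while the short one has 3004 bases and lies within it, so the count does not separate the forms. Its level in saline was 6.72 ± 0.90 RPKM at the deposited width (SD, n = 5) and would be 46.4 RPKM if every read came from the short form. The forms end at different positions, and the long one also holds the short form's last 60 bases, signal included, inside its sequence. The last 60 bases of each form in the GENCODE M21 transcripts (GRCm38) are shown, with the poly(A) signal AATAAA in capitals.
Neat1 short form, chr19:5842307-5842366, minus strand: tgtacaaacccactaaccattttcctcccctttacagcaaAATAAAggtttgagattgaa
Neat1 long form, chr19:5824708-5824767, minus strand: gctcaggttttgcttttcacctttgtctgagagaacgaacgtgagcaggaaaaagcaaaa
The signal was searched on the RNA strand only; 27.15% of 141515 GENCODE transcripts hold it in their last 60 bases, and no match says only that these letters are not in this window.

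Neat1 rose with ASO 3. Its libraries held 202, 233, 227 and 235 CPM in ASO 3, against 157, 187, 175, 146 and 135 CPM in saline. The means were 224 ± 15.0 CPM in ASO 3 and 160 ± 21.1 CPM in saline (SD, n = 4 and 5), and the log2 fold change was 0.49 with a 95% interval of 0.22 to 0.75 (SE 0.13, adjusted p = 0.0391, edgeR). Every ASO 3 library was above every saline library. How many of all tested genes separated in this way was not counted, here or for Pspc1 with ASO 2. An unadjusted p below 0.05 was found for 2922 of 19246 tested genes with ASO 3 (edgeR). With ASO 3, 1.91% of all tested genes were called, against 1 of the 10 genes. Neat1 averaged 198 ± 33.9 CPM with RTR59155 (n = 5), a log2 fold change of 0.31 (adjusted p = 0.417), and 184 ± 28.2 CPM with ASO 1, 183 ± 20.7 with ASO 4, 183 ± 30.1 with RTR113643, 166 ± 28.3 with ASO 2, 166 ± 19.6 with RTR113609 and 160 ± 37.4 CPM with RTR113841. The libraries of these 7 treatments overlapped those of saline. Its single libraries ranged from 117 to 238 CPM, a ratio of 2.03, against at most 1.47 for the protein-coding genes (Sfpq, 86.1 to 127 CPM).

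The ASO 3 libraries also differed from saline in markers of cell types and brain regions. All 5 of 5 red blood cell markers were called higher, with summed levels of 12.2 to 82.9 CPM in ASO 3 and 3.23 to 8.30 CPM in saline. Of 8 hypothalamic markers 4 were called higher, with sums of 63.3 to 229.9 CPM in ASO 3 and 46.7 to 88.2 CPM in saline. Of 8 striatal markers 1 was called lower, with sums of 1530 to 2353 CPM in ASO 3 and 2114 to 2810 CPM in saline. Of 8 microglial markers 1 was called higher, with sums of 670 to 819 CPM in ASO 3 and 583 to 738 CPM in saline. Of 8 astrocyte markers 1 was called higher, with sums of 5234 to 5654 CPM in ASO 3 and 4403 to 5300 CPM in saline. Of 8 oligodendrocyte markers 1 was called lower, with sums of 7758 to 8936 CPM in ASO 3 and 7472 to 9569 CPM in saline. No marker of these lists was at 0 in either group. The part of the red blood cell, microglial, astrocyte and oligodendrocyte markers in the Neat1 result was not tested. With the striatal and hypothalamic marker levels as covariates, the log2 fold change of Neat1 was 0.49 and the call was lost (adjusted p = 0.163). The only ASO 3 library with low Pmch held 227 CPM Neat1. Leaving out the high-Pmch libraries, which leaves that 1 ASO 3 library assumed to vary like the rest, gave a log2 fold change of 0.50 (adjusted p = 0.705). Without single libraries the adjusted p ran from 0.0225 to 0.122 and was above 0.05 in 8 of 39 such fits, those without 1 of the 4 ASO 3 libraries or without saline replicate 1, 3, 4 or 5. Malat1, the noncoding neighbour of Neat1 on chromosome 19, averaged 126 ± 26.4 CPM in ASO 3 and 183 ± 65.6 CPM in saline (n = 4 and 5), a log2 fold change of -0.55 (adjusted p = 0.147).

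**Figure D3:**
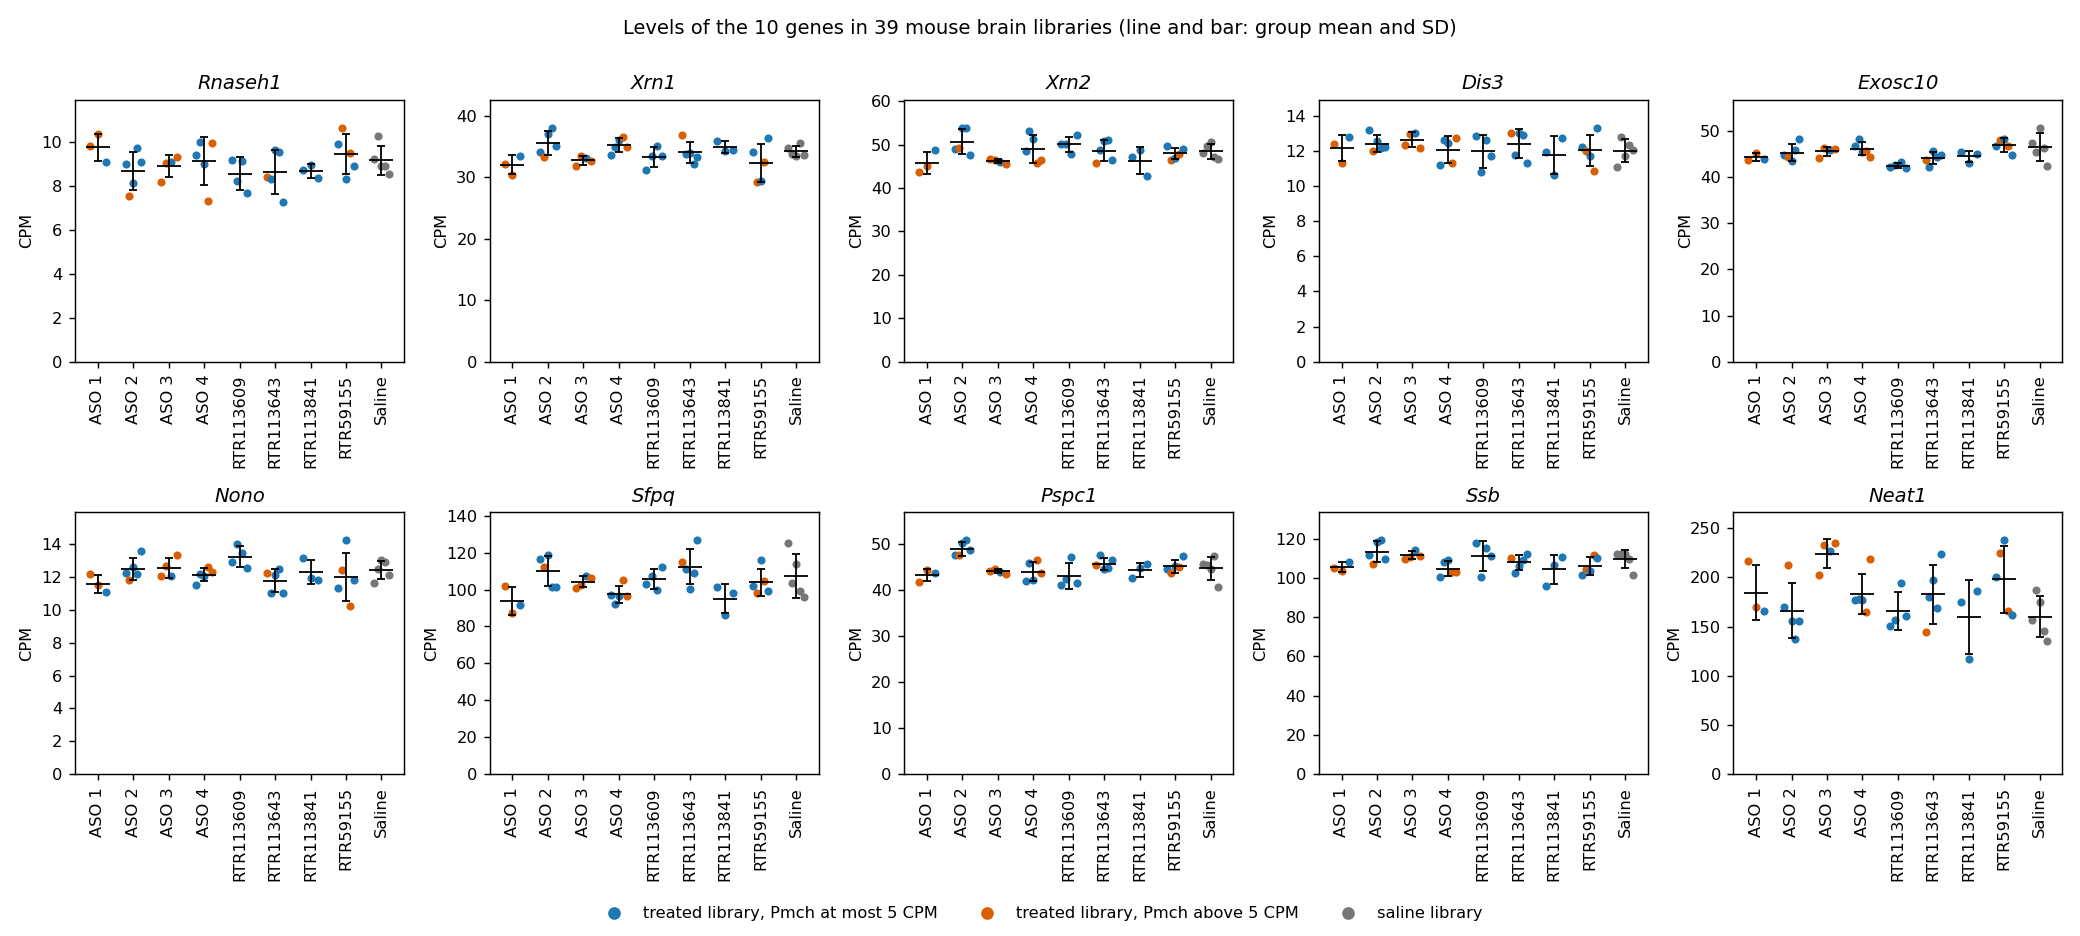
CPM of each of the 10 genes in every library, by group, with the group mean and SD; orange points are treated libraries with Pmch above 5 CPM and grey points are saline. The 4 ASO 3 points of Neat1 (202 to 235 CPM) lie above all 5 saline points, and the 5 ASO 2 points of Pspc1 (47.7 to 50.9 CPM) lie above the saline points (40.7 to 47.6 CPM).

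The remaining treatments called none of the 10 genes against saline, where 0.229% of all tested genes were called with ASO 1, 0.0727% with ASO 2, 0.0156% with ASO 4, 0.483% with RTR113643, 0.0935% with RTR113841 and 0.608% with RTR59155. In each of these 6 comparisons 1 of the 10 had an unadjusted p below 0.05, against 1379 to 2515 of all 19246 tested genes (edgeR). DESeq2 called Pspc1 with ASO 2 while limma voom called none. With the 8 treatments pooled against saline, 0.4% of all genes were called and none of the 10 (edgeR), and neither DESeq2 nor limma voom called any. None of the 10 had an unadjusted p below 0.05 there, against 1754 of all 19246 tested genes (edgeR). The pooled log2 fold changes ran from -0.07 to 0.19, the highest being Neat1.

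Across all 9 groups together, 2 of the 10 genes were called, Pspc1 (adjusted p = 0.0225) and Sfpq (adjusted p = 0.0320, edgeR), where 19% of all tested genes were called. Among the numbered ASOs, 5 of 60 tests passed (edgeR). They were 2 of 10 between ASO 1 and ASO 2, where 10.8% of all tested genes were called. A further 2 of 10 were called between ASO 2 and ASO 3 (5.74%) and 1 of 10 between ASO 2 and ASO 4 (1.85%). The comparisons without a call had 0.442% to 1.68% of all tested genes called. The Pspc1 calls between ASOs all rest on the same ASO 2 libraries. Between ASO 1 and ASO 2, where 10.8% of all genes were called, Sfpq was lower in ASO 1, with 102, 87.4 and 91.6 CPM in ASO 1 and 116, 112, 119, 102 and 102 CPM in ASO 2, a log2 difference of -0.23 (SE 0.07, adjusted p = 0.0354, edgeR). The ASO 1 range reached into the lower end of the ASO 2 range. Pspc1 was also lower in ASO 1, at 43.4 ± 1.3 CPM in ASO 1 and 49.1 ± 1.5 CPM in ASO 2 (SD, n = 3 and 5), a log2 difference of -0.18 (SE 0.05, adjusted p = 0.0114) with no overlap. Between ASO 2 and ASO 3, where 5.74% of all genes were called, Pspc1 was higher in ASO 2 by 0.15 in log2 (adjusted p = 0.0234), at 49.1 ± 1.5 CPM in ASO 2 and 44.1 ± 0.4 CPM in ASO 3 (n = 5 and 4). Neat1 was lower in ASO 2 than in ASO 3 by a log2 fold change of -0.43 (adjusted p = 0.0412), at 166 ± 28.3 CPM in ASO 2 and 224 ± 15.0 CPM in ASO 3. Between ASO 2 and ASO 4, where 1.85% were called, Pspc1 was higher in ASO 2 by 0.16 in log2 (adjusted p = 0.0347), at 49.1 ± 1.5 CPM in ASO 2 and 44.1 ± 2.1 CPM in ASO 4 (n = 5 each).

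Single libraries decided several of these calls, and none changed sign. Pspc1 between ASO 1 and ASO 2 was above 0.05 without ASO 1 replicate 1 (adjusted p = 0.0840). Sfpq between the same ASOs was above 0.05 without ASO 1 replicate 2 or 3 or ASO 2 replicate 1, 2 or 3 (up to 0.1997), and its test over the 9 groups without ASO 1 replicate 2 or 3 or RTR113643 replicate 1 or 5 (up to 0.0693). Pspc1 was above 0.05 between ASO 2 and ASO 3 without ASO 2 replicate 3 or 4 or ASO 3 replicate 1, 2 or 4 (up to 0.0783), between ASO 2 and ASO 4 without ASO 2 replicate 3, 4 or 5 or ASO 4 replicate 1, 3 or 5 (up to 0.1295), and over the 9 groups without ASO 2 replicate 3 or 4 (up to 0.0690). Neat1 between ASO 2 and ASO 3 was above 0.05 without ASO 2 replicate 1, 3, 4 or 5 or 1 of the ASO 3 libraries (up to 0.111).

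None of the 10 was called between ASO 1 and ASO 3 (background 1.68%), ASO 1 and ASO 4 (0.442%) or ASO 3 and ASO 4 (1.21%). In the same order, 0, 1 and 3 of them had an unadjusted p below 0.05, against 2836, 1705 and 2786 of all 19246 tested genes (edgeR). DESeq2 and limma voom called none there. Between ASO 1 and ASO 2, DESeq2 also called Xrn1 (adjusted p = 0.0465) and Xrn2 (adjusted p = 0.0336), whose edgeR values were 0.0707 and 0.0556. Regional markers differed in some of the comparisons between ASOs. Between ASO 1 and ASO 2, 7 of 8 striatal markers were called lower in ASO 1, with sums of 1611 to 2183 CPM in ASO 1 and 2382 to 2883 CPM in ASO 2. There 1 of 8 hypothalamic markers was called higher in ASO 1. Between ASO 2 and ASO 3 all 8 striatal markers were called higher in ASO 2, and 5 of 8 hypothalamic markers lower. Between ASO 2 and ASO 4, 1 of 8 striatal markers was called higher in ASO 2 and 0 of 8 hypothalamic markers were called. Between ASO 3 and ASO 4, 1 of 8 hypothalamic markers was called higher in ASO 3 and 0 of 8 striatal markers were called. No marker of either list was called between ASO 1 and ASO 3 or ASO 1 and ASO 4. With both marker levels as covariates none of the 5 calls between ASOs held, and the number of all genes called between ASO 1 and ASO 2 was 18. Leaving out the high-Pmch libraries leaves 1 library each of ASO 1 and ASO 3, so that 4 of the 5 comparisons have a group of 1 library, assumed to vary like the others. None of the 5 was called in that fit, nor was any gene between ASO 1 and ASO 2, and with so few libraries the loss says nothing about stability. The log2 differences in both fits lay between -0.55 and 0.19, with unchanged signs.

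**Figure D4:**
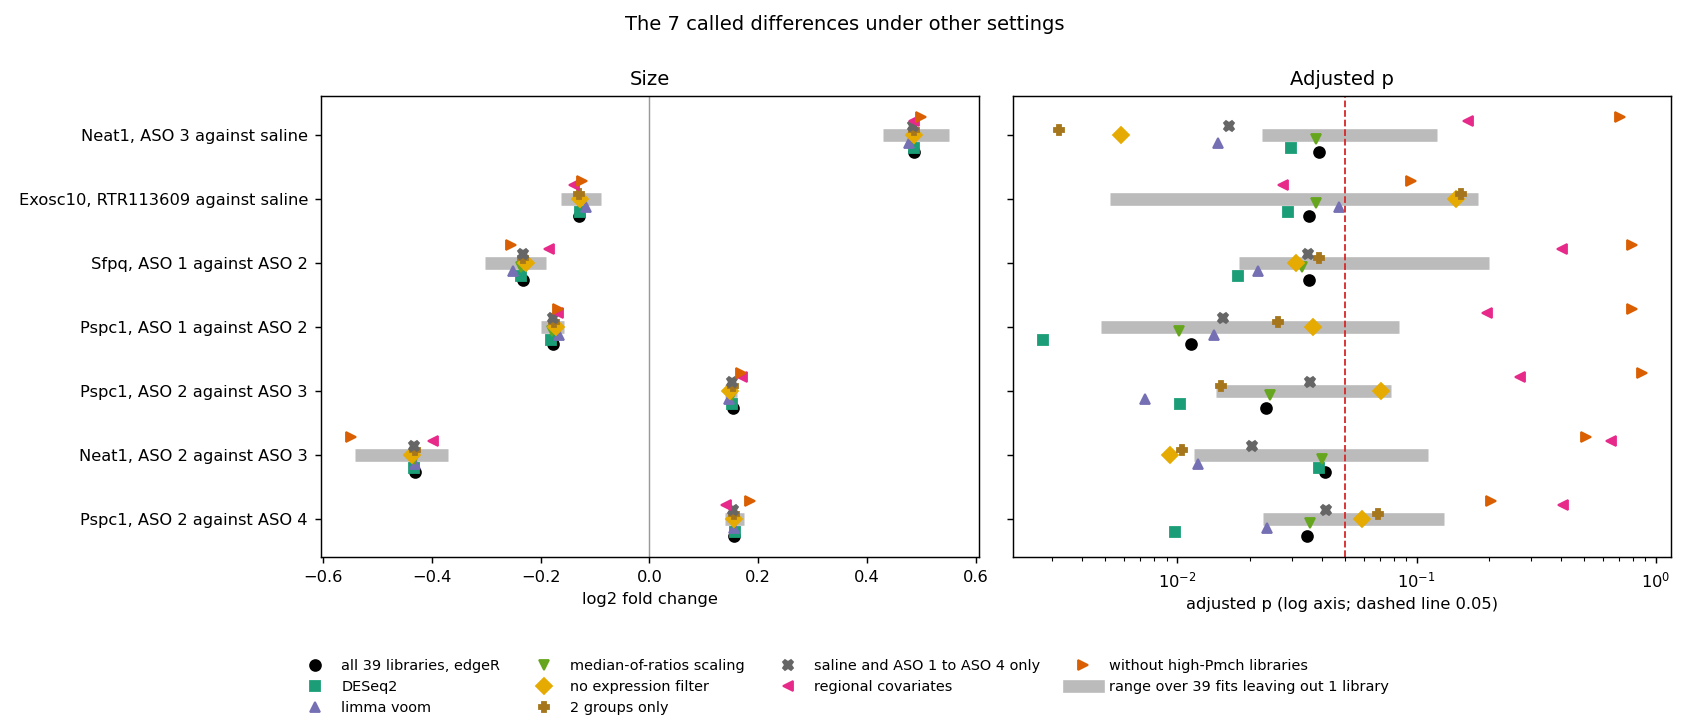
The 7 called differences among the 10 genes, with log2 fold change at left and adjusted p at right (log axis), for the fit with all 39 libraries and for each alternative; grey bars span the fits that leave out 1 library. Signs are the same in every setting, and the adjusted p is above 0.05 for all 7 without the high-Pmch libraries.

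Of the related lists, 4 genes were called against saline, 3 of them with RTR113609, where 6.72% of all tested genes were called, and 1 with ASO 3, where 1.91% were called. As shares of all the listed genes, these counts are not above the background. Of the 3 RNase H2 subunit genes, 0 were called in any treatment (medians between -0.02 and 0.10 in log2). Of 18 tested exosome genes and cofactors (19 listed), 1 was called, Zcchc7, a subunit of the TRAMP complex that hands RNAs to the exosome, at 24.9 ± 1.4 CPM in RTR113609 and 33.4 ± 2.5 CPM in saline (SD, n = 4 and 5; log2 fold change -0.42, adjusted p = 0.0115, edgeR). Of 19 tested decapping and cytoplasmic decay genes (20 listed), 1 was called, Dcp1a, a decapping cofactor, at 28.2 ± 1.5 CPM in ASO 3 and 31.6 ± 0.9 CPM in saline (-0.16, adjusted p = 0.0378). Of 22 other paraspeckle genes, 1 was called, Rbmx, an RNA-binding protein gene, at 41.5 ± 2.8 CPM in RTR113609 and 47.6 ± 1.7 CPM in saline (-0.20, adjusted p = 0.0166). Of 10 RNA polymerase III and La partner genes, 1 was called, Polr3a, the polymerase's largest subunit, at 25.0 ± 0.9 CPM in RTR113609 and 28.4 ± 1.2 CPM in saline (-0.18, adjusted p = 0.0249). None of 20 other oligonucleotide-binding protein genes and none of 9 other nuclear noncoding RNAs was called against saline in any treatment (edgeR). The list medians against saline lay between -0.06 and 0.01 in log2 for the exosome, -0.03 and 0.03 for decapping, -0.02 and 0.06 for paraspeckles, -0.03 and 0.01 for oligonucleotide binding, -0.07 and 0.01 for RNA polymerase III and -0.24 and 0.06 for noncoding RNAs, where the median of all tested genes lay between -0.0028 and 0.0044. Over the 9 groups, 1 exosome, 2 decapping, 4 paraspeckle and 3 oligonucleotide-binding genes were called, and none of the 3 other lists; as 19% of all tested genes were called in this test, each of these counts is near or below the background.

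Within groups, the genes whose levels followed each member most closely over the 39 libraries, by Pearson r of the deviations of log2 CPM from the group means, are given as a description. For Neat1 they were Miat (r = 0.821), a nuclear noncoding RNA, Atxn2l (0.808) and Bmp1 (0.789). Sfpq was nearest to Rhot2 (0.875) and Rbfox2 (0.788), Xrn2 to Hp1bp3 (0.797), Xrn1 to Bmpr2 (0.783), Ssb to Actr10 (0.788), Pspc1 to Lrrc40 (0.727), Exosc10 to Tubgcp6 (0.722) and Rnaseh1 to Snx32 (0.714). Dis3 (Mri1, 0.592) and Nono (Fam124a, 0.602) had no gene above 0.61. Among the 45 pairs of the 10 genes themselves, r lay between -0.516 for Rnaseh1 and Sfpq and 0.429 for Xrn1 and Pspc1. Differences in depth and tissue composition between libraries enter all of these values.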

How the data were processed

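Polyadenylated RNA of mouse brain was measured in 39 libraries (9 groups). The submitters' processing notes name GSNAP and GRCm38; versions, counting tool and strand setting are not stated there. Every deposited file holds whole-number read counts for 52636 Ensembl genes, the gene width in bases (deposited by the authors) and RPKM computed by the authors. Counts made up 86.1 to 88.2% of the total implied by the deposited RPKM. No 2 libraries were identical (pairwise r of log2 CPM 0.987 to 0.998).

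The counts were tested with edgeR 4.0.16 (R 4.3.3): filterByExpr, TMM scaling, glmQLFit and glmQLFTest over all 9 groups, and Benjamini-Hochberg adjustment over 19246 genes at 0.05. CPM are TMM-scaled; log2 CPM, used for the correlations and covariates, had a prior count of 2. Alternatives were DESeq2 1.42.0, limma 3.58.1 voom (quality weights), scaling by median of ratios, no filter (34898 genes), fewer groups, each library left out, 2 regional marker covariates and no high-Pmch libraries. Replicate numbers follow accession order and pair no samples. Fits were tested on simulated counts. Gene symbols and coordinates come from GENCODE M21, which named 52403 genes. Named genes are all 10 members, up to 2 called genes per list with the smallest adjusted p against saline, 1 to 3 of the 3 nearest genes per member (r over genes with at least 1 CPM), and Tmem106b. Malat1, Pibf1, Mettl5 and Gm12940 are named for their position, and Pmch as a marker of region. The members, lists and tests were chosen with earlier results of these data known.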

Additional observations from a re-analysis of the deposited data

Results flagged for a closer look

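Dixon's rule was applied to 70 sets, each gene in each group of 4 or 5 libraries, and marked 3; about 1 in 20 such sets is marked by chance. Exosc10 in ASO 3 replicate 1 was 44.19 CPM, lower than the other 3 libraries at 45.96 to 46.22 CPM. Ssb in saline replicate 5 was 101.7 CPM, lower than the other 4 at 109.8 to 112.3 CPM. Neat1 in ASO 4 replicate 5 was 218.9 CPM, higher than the other 4 at 164.5 to 178.2 CPM. That library had Pmch at 22.8 CPM. The group's other high-Pmch library, ASO 4 replicate 4, had Pmch at 38.2 CPM and the lowest Neat1, 164.5 CPM. The part of regional content in these values was not tested.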

How the results depend on the processing

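Against saline, 2 of 80 tests were called. The count was 3 with DESeq2, 2 with limma voom and 2 with median-of-ratios scaling. It was 1 without the expression filter, 1 with only the 2 groups compared and 1 with the regional covariates. It was 0 without high-Pmch libraries, and 0 to 2 when 1 library was left out. Over the 9 groups, 2 were called, 0 with regional covariates, 0 without the high-Pmch libraries, 4 with limma voom and 1 to 4 when 1 library was left out. Between ASOs, 5 were called, 7 with DESeq2, 5 with limma voom and 5 with median-of-ratios scaling. The count was 6 with only saline and ASO 1 to ASO 4 in the fit and 4 with only the 2 groups compared. It was 3 without the filter, 0 with regional covariates, 0 without the high-Pmch libraries and 1 to 7 when 1 library was left out. With the treatments pooled, no setting called any member. No called result changed sign in any setting run; 55 of 143 uncalled values changed sign in at least 1. No paired analysis was possible because the replicate numbers only follow accession order. The number of libraries per group (3 to 5) and counts as low as 144 for Rnaseh1 limit the precision of the smallest differences; the cause of the lost calls was not tested. Without the high-Pmch libraries, ASO 1 and ASO 3 keep 1 library each.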
